A study of Mus musculus with 4 samples.

Results

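The regions described here are BRG1/BRM islands that lay deep inside very long genes of depolarized mouse cortical neurons. Islands are stretches of the genome enriched in chromatin immunoprecipitation sequencing (ChIP-seq) over a control. Members were the islands of the KCl list that were wider than 600 bp and narrower than 5000 bp, overlapped the body of a protein-coding gene of 500 kb or more, and touched no window of 2 kb to either side of any protein-coding gene's start or end coordinate. This rule selected 1649 of 20966 KCl islands (7.87%) and used no read counts. It drew on 227 of 21887 protein-coding genes (1.04%), with lengths of 502 to 2390 kb and a median of 734 kb. A further 282 islands in these interiors were narrower and 34 wider than the rule allows.

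The study compared wild-type primary cortical neurons from E16.5 mouse embryos at 6 days in vitro, either depolarized with 50 mM KCl for 1 h or kept at the basal KCl level. On day 5, before depolarization, activity in the KCl cultures had been silenced with 1 µM TTX, which blocks sodium channels, and 100 µM APV, which blocks NMDA receptors. Whether the basal cultures were silenced too is not stated in the labels. The J1 antibody recognizes both BRG1 and BRM, and each condition had 1 immunoprecipitated (IP) library and 1 input library. Differences between KCl and basal therefore lack replication, and p-values are left out. Cell type was taken from the labels, since no expression was measured in these files. The 20966 KCl islands summed to 1433200 reads of IP and 400612 of control, and the 711 basal islands to 142021 and 130865. Intervals in square brackets are 95% exact intervals that cover counting error only.

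BRG1 and BRM are the alternative ATPases of the BAF (SWI/SNF) complex, which moves and evicts nucleosomes and occupies promoters as well as distal regulatory elements. Very long mammalian genes are mostly made of introns, and many of them encode neuronal adhesion molecules, receptors and scaffolds. Such introns can hold enhancers and additional transcription starts of the host gene, which give rise to shorter transcripts.

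Sequence was at hand for annotated transcription starts, as windows of 250 bases before to 50 bases after each start from RefSeq (GRCm38.p6), and no genome sequence of the islands was used. Of the 1649 members, 43 overlapped such a window (2.61% [1.89 to 3.50]). At the same widths and away from gene ends, the share was 8.19% inside shorter genes and 2.85% outside genes. It was 19.4% of all KCl islands, which include those at gene ends that the rule leaves out. In 35 of the 43 the window was a further start of the long gene itself, and these belonged to 32 genes. The 6 shown first are the internal starts under the member islands with the highest lower limits of fold, at 1 per gene. They lie at Magi1 and Magi2 (membrane-associated synaptic scaffolds), Anks1b (a postsynaptic ankyrin-repeat protein), Nkain2 (a membrane protein that interacts with the sodium pump), Hdac9 (a class II histone deacetylase) and Lsamp (an adhesion protein of the IgLON family). The last, at Fgf13, which encodes an intracellular fibroblast growth factor homologue, is the internal start richest in CpG among those without a KCl island. Capitals mark CpG dinucleotides.
Magi1 (chr6:93912914-93913213, minus strand): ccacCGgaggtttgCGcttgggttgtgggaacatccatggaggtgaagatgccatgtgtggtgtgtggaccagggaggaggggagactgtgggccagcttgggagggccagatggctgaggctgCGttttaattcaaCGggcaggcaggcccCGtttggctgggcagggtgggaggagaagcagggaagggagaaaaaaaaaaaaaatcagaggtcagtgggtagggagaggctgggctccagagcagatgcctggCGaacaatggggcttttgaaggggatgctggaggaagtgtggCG
Anks1b (chr10:90576441-90576740, plus strand): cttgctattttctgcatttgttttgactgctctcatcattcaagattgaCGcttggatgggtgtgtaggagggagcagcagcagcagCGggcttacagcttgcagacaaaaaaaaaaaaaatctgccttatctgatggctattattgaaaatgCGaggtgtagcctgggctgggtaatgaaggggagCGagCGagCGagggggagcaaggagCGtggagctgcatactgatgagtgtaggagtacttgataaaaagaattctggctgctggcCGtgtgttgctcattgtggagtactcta
Nkain2 (chr10:32889866-32890165, minus strand): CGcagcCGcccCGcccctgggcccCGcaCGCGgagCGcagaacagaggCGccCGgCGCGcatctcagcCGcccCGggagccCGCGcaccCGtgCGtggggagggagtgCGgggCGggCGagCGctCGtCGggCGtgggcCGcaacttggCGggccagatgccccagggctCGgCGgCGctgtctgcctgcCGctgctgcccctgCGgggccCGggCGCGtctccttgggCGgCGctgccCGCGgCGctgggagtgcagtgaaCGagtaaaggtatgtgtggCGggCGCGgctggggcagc
Magi2 (chr5:19226796-19227095, plus strand): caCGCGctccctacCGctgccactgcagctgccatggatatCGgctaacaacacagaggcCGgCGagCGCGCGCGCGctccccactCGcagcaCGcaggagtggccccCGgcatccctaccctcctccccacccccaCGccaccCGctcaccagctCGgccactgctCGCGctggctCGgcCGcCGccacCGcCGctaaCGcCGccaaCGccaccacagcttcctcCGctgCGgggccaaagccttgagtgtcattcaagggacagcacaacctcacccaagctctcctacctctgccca
Hdac9 (chr12:34528840-34529139, minus strand): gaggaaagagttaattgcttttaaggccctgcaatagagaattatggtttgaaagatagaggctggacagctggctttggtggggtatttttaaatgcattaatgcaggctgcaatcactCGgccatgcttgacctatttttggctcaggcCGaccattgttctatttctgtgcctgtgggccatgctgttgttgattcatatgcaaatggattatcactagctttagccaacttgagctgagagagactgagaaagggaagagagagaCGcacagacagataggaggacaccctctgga
Lsamp (chr16:41532576-41532875, plus strand): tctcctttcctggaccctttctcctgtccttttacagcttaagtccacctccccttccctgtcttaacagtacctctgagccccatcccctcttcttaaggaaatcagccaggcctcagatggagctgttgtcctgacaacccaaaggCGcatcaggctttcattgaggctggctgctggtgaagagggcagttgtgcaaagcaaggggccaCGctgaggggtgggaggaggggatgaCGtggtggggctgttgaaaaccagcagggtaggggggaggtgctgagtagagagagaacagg
Fgf13 (chrX:59567299-59567598, minus strand): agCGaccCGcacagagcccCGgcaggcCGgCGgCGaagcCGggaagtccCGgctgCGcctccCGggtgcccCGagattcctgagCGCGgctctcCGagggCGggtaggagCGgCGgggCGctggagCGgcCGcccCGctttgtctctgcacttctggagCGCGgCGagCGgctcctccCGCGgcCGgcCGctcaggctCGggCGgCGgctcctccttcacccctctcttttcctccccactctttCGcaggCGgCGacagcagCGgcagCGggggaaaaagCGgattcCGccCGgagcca
The windows of Nkain2 and Magi2 carried 43 and 29 CpG, whereas those of Anks1b, Magi1, Hdac9 and Lsamp carried 8, 7, 3 and 3. The Fgf13 window, with no island, carried 40.

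The first comparison asked how densely KCl islands filled the interiors of long genes. Depolarized neurons had 8.72 islands per Mb [8.30 to 9.15] in the 189 Mb of interior of genes of 500 kb or more, 6.17 per Mb [6.00 to 6.35] in the interiors of shorter genes and 4.56 per Mb [4.45 to 4.66] outside genes. The rate was 1.41 times [1.34 to 1.49] that of shorter genes and 1.91 times [1.81 to 2.02] that of intergenic sequence. No step occurred at 500 kb. The rate was 2.89 per Mb in genes under 50 kb, 5.00 at 50 to 100 kb and 7.43 at 100 to 200 kb. At 200 to 350 kb it was 8.41 [7.93 to 8.90] and at 350 to 500 kb 9.13 [8.50 to 9.79]. It was 8.55 [7.87 to 9.27] at 500 to 750 kb, 9.34 [8.44 to 10.3] at 750 to 1000 kb and 8.54 [7.91 to 9.21] above that. The intervals of all classes from 200 kb upward thus overlapped. Just inside the threshold, Edil3 (502 kb), Dock1 (503 kb) and Samd12 (503 kb) held 7, 5 and 2 islands. Just outside it, Dnm3 (496 kb), Lrrc7 (495 kb) and Cacna1e (494 kb) held 4, 5 and 4.

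**Figure D1:**
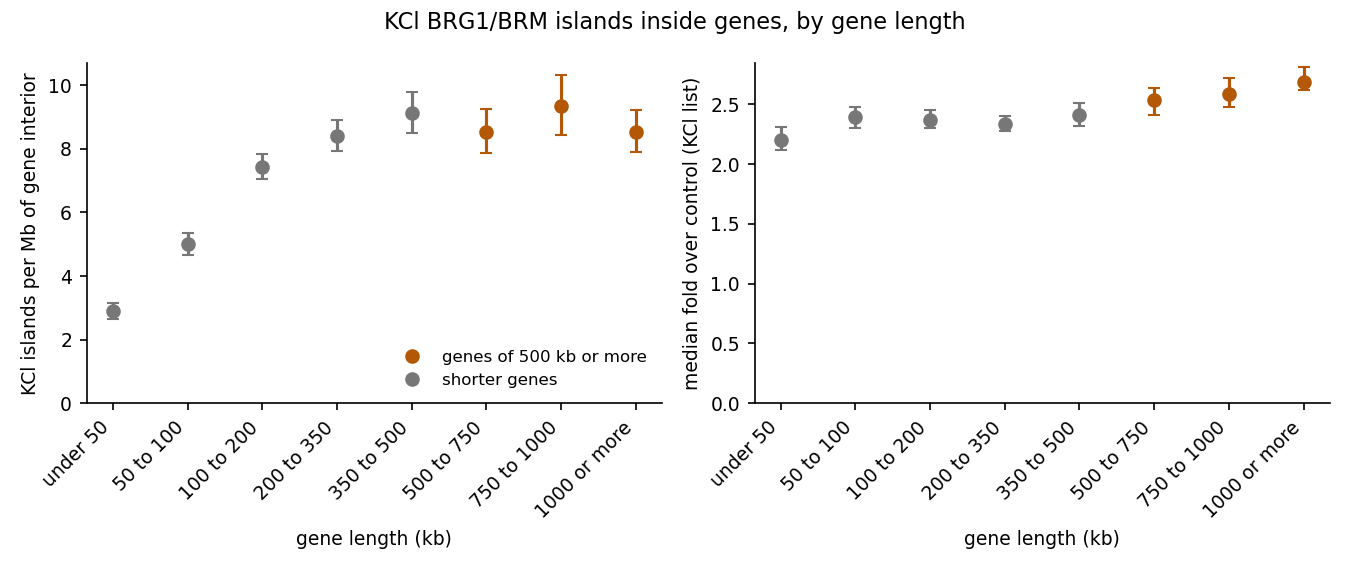
Left, KCl islands per Mb of gene interior by gene length in kb; right, the median fold over control of these islands. Points carry exact 95% intervals, and those of the island rate overlap between all classes from 200 kb upward. The median fold is highest in genes of 1000 kb or more (2.69).

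Enrichment of members was modest, and their size was bounded by the rule. Their widths had a median of 1600 bp (interquartile range 1200 to 2400 bp). Under the same bounds the median was 1800 bp inside shorter genes and 1600 bp outside genes. Each member held 30 to 213 IP reads (median 60) against 1 to 61 control reads (median 15). The authors' fold over control had a median of 2.62 [2.57 to 2.67] and an interquartile range of 2.02 to 3.48. The median was 2.36 [2.32 to 2.39] inside shorter genes, 2.65 [2.62 to 2.67] outside genes and 1.83 [1.81 to 1.85] within 2 kb of gene ends. Members were thus close to intergenic islands in fold and above those of shorter genes. Median fold was 2.54 [2.41 to 2.64] in genes of 500 to 750 kb, 2.59 [2.48 to 2.72] at 750 to 1000 kb and 2.69 [2.62 to 2.81] above that. Wider islands had lower folds, and at matched widths members were above islands inside shorter genes in each of 4 classes. The intervals met at 3.42 in the narrowest class and overlapped in the widest. Up to 1000 bp, members had a median of 3.60 [3.42 to 3.71] and islands inside shorter genes 3.30 [3.14 to 3.42]. Above 1000 and up to 2000 bp these were 2.68 [2.61 to 2.79] and 2.47 [2.44 to 2.51], and above 2000 and up to 3000 bp 2.23 [2.12 to 2.34] and 2.02 [1.98 to 2.08]. In the widest class, above 3000 bp, the intervals of members, 1.99 [1.80 to 2.11], and of shorter genes, 1.83 [1.79 to 1.88], overlapped. Outside genes the medians of the 4 classes were 3.42, 2.66, 2.22 and 1.94, each slightly below that of members and with an overlapping interval. Control density moved the other way, with a median of 8.75 reads per kb in members and 9.17 inside shorter genes, and its part in the fold was not tested.

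In all, 1249 members (75.7%) reached a fold of at least 2, against 66.6% of all KCl islands. The exact interval of the fold lay above 1 for 1484 members (90.0%), against 86.4%, and 1346 (81.6%) had an FDR of at most 1e-05, against 76.9%. All KCl islands include other widths and those at gene ends, which the rule leaves out. At the widths of members the interval lay above 1 for 89.8% of islands outside genes, close to members. It did so for 86.1% inside shorter genes and 74.5% at gene ends. The authors' FDR threshold already selected every island in these lists, so these shares grade strength and do not test enrichment.

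Nearly every very long gene carried at least 1 member. This was so for 219 of 227 genes (96.5% [93.2 to 98.5]), against 12.5% of protein-coding genes of any length, which offer less sequence per gene. Genes held a median of 6 islands (interquartile range 3 to 10, highest 35), and 64 genes held 10 or more. Number of islands rose with gene length across the 227 genes (Pearson's r = 0.55, Spearman's rho = 0.46), while islands per Mb did not (r = 0.00, rho = 0.06). These genes share 1 library and are not replicates. Of 1649 members, 13 lay in both Schip1 and the read-through gene Iqschfp that contains it, and 6 in 3 overlapping predicted genes, and they count for each.

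**Figure D2:**
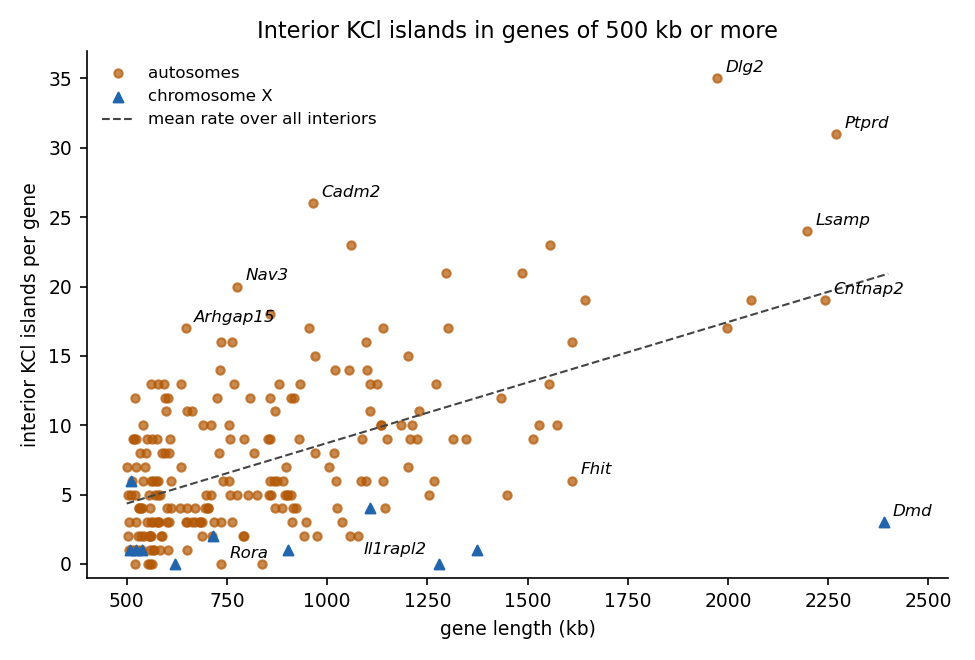
Interior KCl islands (vertical axis) against gene length in kb for the 227 genes of 500 kb or more, with chromosome X genes as triangles and the mean rate of 8.72 islands per Mb as a dashed line. Dlg2 and Ptprd stand highest with 35 and 31 islands, and the longest gene, Dmd, has 3.

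Dlg2, the gene of the postsynaptic scaffold PSD-93, led with 35 islands over 1973 kb, equal to 17.8 per Mb [12.4 to 24.7]. Its islands together held 2482 IP and 637 control reads, a pooled fold of 2.45 [2.24 to 2.67], and single folds ran between 1.43 and 8.61. Ptprd, a receptor tyrosine phosphatase that organizes synapses, had 31 islands (13.7 per Mb [9.29 to 19.4]) with a pooled fold of 2.61 [2.37 to 2.87]. Cadm2, the gene of the adhesion molecule SynCAM 2, had 26 islands in only 966 kb. At 27.0 per Mb [17.7 to 39.6] it was the densest of all, with neighbours a median of 26.8 kb apart.

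Lsamp came next with 24 islands (11.0 per Mb). Robo2, a Slit receptor of growing axons, had 23 and the highest pooled fold of the 12 genes with most members, 2.90 [2.58 to 3.26]. Magi2 had 21, and so did Tenm3, which encodes a teneurin that pairs with latrophilins across the synapse. Nav3, a microtubule-associated neuron navigator, had 20 islands in 774 kb (26.0 per Mb) and the lowest pooled fold of the 12, 2.15 [1.93 to 2.41]. Cntnap2, which encodes the axonal adhesion protein Caspr2, Csmd1, with complement-control domains, and Lrp1b, of the LDL receptor family, had 19 each. Over the length of Cntnap2 this was 8.49 per Mb [5.11 to 13.3], near the mean of all long genes. Its islands left 1 stretch of 672 kb without a member.

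**Figure D3:**
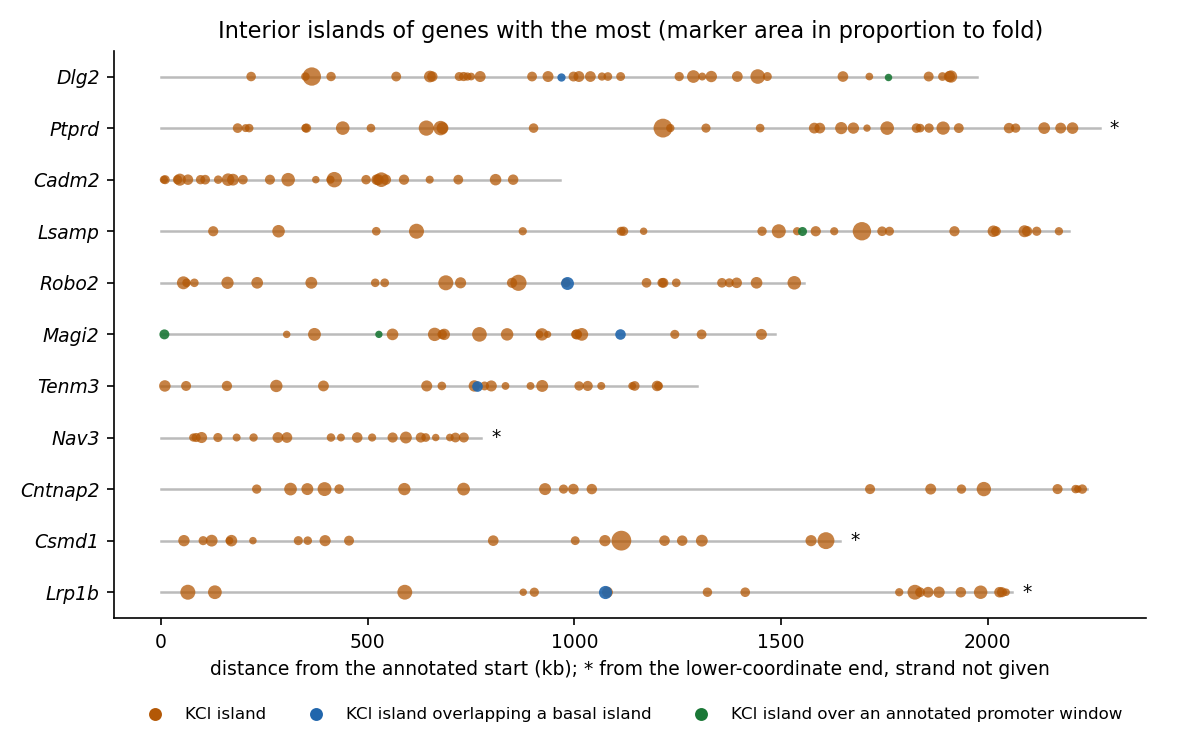
Positions of the members in 11 of the 12 genes that hold the most, as distance in kb from the annotated start, or from the lower-coordinate end where strand is not given (asterisk). Marker area is in proportion to fold, colours mark overlap with a basal island or a promoter window, and islands are spread over whole gene bodies, with 35 in Dlg2 and 19 in Lrp1b.

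Ranking by density among genes with at least 10 islands brought up shorter members of the class. After Cadm2 came Arhgap15, encoding a GTPase-activating protein for Rac, with 17 islands in 647 kb (26.4 per Mb [15.4 to 42.3]) and neighbours a median of 17.6 kb apart. Nav3 was followed by Schip1 (13 islands, 23.3 per Mb [12.4 to 39.9]) and the cyclic AMP phosphodiesterase gene Pde4b (12 islands, 23.3 per Mb). Ank2, the gene of the membrane adaptor ankyrin-B, held 13 islands (22.6 per Mb), Iqschfp 16 (22.2 per Mb) and the atypical cadherin gene Fat3 13 (22.1 per Mb). The 95% intervals of all 8 overlapped each other. Across the 227 genes the interval lay wholly above the mean rate for 25 genes and wholly below it for 19, and with so many intervals some lie outside by chance.

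Absence of members was rare. The 8 genes without one were Il1rapl2, Sugct, Rora, Pcdh11x, A830018L16Rik, Mecom, Ryr2 and Skint5. The 1278 kb of Il1rapl2, an interleukin-1 receptor family gene on chromosome X, allowed a rate of up to 2.91 per Mb. Rora, which encodes a nuclear receptor, allowed up to 5.05 per Mb over its 735 kb, and Ryr2, the gene of a calcium release channel, up to 6.71. Counting islands of every width, 222 of 227 genes had 1. The longest gene of all, Dmd, which encodes dystrophin, had only 3 members in 2390 kb (1.27 per Mb [0.261 to 3.70]). Erbb4, a neuregulin receptor gene, had 2 in 1077 kb (1.86 per Mb [0.226 to 6.74]). Dmd and Erbb4 were chosen after their values were seen.

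Several of these sparse genes lie on chromosome X. Over the 11 long genes of X there were 20 members, 1.92 per Mb [1.18 to 2.97], against 9.12 per Mb [8.68 to 9.57] over the 216 autosomal ones. Sparse coverage of X was not limited to long genes. It held 0.945 per Mb [0.637 to 1.35] inside its shorter genes, against 6.41 on autosomes, and 0.657 [0.521 to 0.818] outside genes, against 5.19. Control density in members was 6.94 reads per kb on X and 8.75 on autosomes. The sex of the embryos is not given in the labels, and the part of X copy number was not tested. Aff2, with 6 members in 512 kb (11.8 per Mb), had the highest rate of the X genes.

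Gene groups were compared by lists chosen with earlier results of these data known, and 136 of the 227 genes were in at least 1 list. All genes of 500 kb or more together had 8.72 islands per Mb, and 219 of 227 had 1. Synaptic adhesion and organizer genes had an island in 28 of 29 members, 301 islands in all and 9.21 per Mb [8.20 to 10.3], led by Ptprd, Cadm2 and Lsamp. Cadherins and catenins had one in 9 of 10 genes (9.84 per Mb [8.02 to 11.9]). There Ctnna2, encoding the neuronal alpha-catenin that links cadherins to actin, had 16 islands, and Fat3, Pcdh9 and Pcdh15 had 13 each. Axon guidance genes had one in 10 of 10 (11.1 per Mb [9.05 to 13.6]). After Robo2 and Nav3, Robo1 had 14 islands and Dab1, an adaptor in Reelin signalling, 13.

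Synaptic scaffold and signalling genes had an island in 25 of 25 (10.7 per Mb [9.33 to 12.2]). Behind Dlg2 and Magi2 stood the phosphodiesterase gene Pde4d with 17 islands and the cGMP-dependent kinase gene Prkg1 with 15. Transcription and chromatin genes had one in 16 of 18 (9.20 per Mb [7.59 to 11.1]), with 17 in Sox5, a SoxD factor of deep-layer cortical neurons, 13 in Auts2 and 11 each in Foxp1 and Hdac9. Their median fold, 2.23 [2.04 to 2.46], was the lowest of the 10 lists, and the median over all members was 2.62. RNA-binding genes had one in 5 of 5 (8.65 per Mb [6.15 to 11.8]), of which the splicing regulator genes Celf2 and Rbfox1 held 18 and 10, and Khdrbs2 held 8.

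Ion channel and transmitter receptor genes were less densely covered, at 7.13 per Mb [5.82 to 8.63], with an island in 17 of 18. Trpm3, a TRP cation channel gene, had 12, Kcnip4, encoding a potassium channel interacting protein, 10. The metabotropic receptor gene Grm5, the potassium channel genes Kcnd2 and Kcnq5, and Dpp10, encoding a potassium channel auxiliary protein, tied at 9 each. Dystrophin complex and laminin genes had one in 5 of 5 at the lowest rate, 5.10 per Mb [3.41 to 7.32]. The list includes Dmd on chromosome X, and without it the rate was 7.83 per Mb [5.11 to 11.5]. Lama2, encoding a laminin chain, had 13 islands (20.6 per Mb [11.0 to 35.2]), and Sgcd and Sgcz had 8 and 4. Genes at common fragile sites had one in 12 of 12 (7.35 per Mb [5.98 to 8.94]), led by Lrp1b, Macrod2 with 17 and Immp2l with 13. Genes known mainly from hair cells, kidney, lung and other tissues had one in 6 of 6 (7.27 per Mb [5.00 to 10.2]), led by Pcdh15 and by Ptprk with 7. The intervals of axon guidance and of scaffold and signalling genes lay above the mean of 8.72, those of ion channels and of the dystrophin list below it, and those of the other 6 lists held it. On autosomes alone, with a mean of 9.12 per Mb, synaptic adhesion genes, 10.3 [9.13 to 11.5], and scaffold and signalling genes, 10.9 [9.52 to 12.4], lay above it. Ion channel and fragile site genes then lay below it, and the intervals of the other 6 lists, axon guidance and dystrophin among them, held it.

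**Figure D4:**
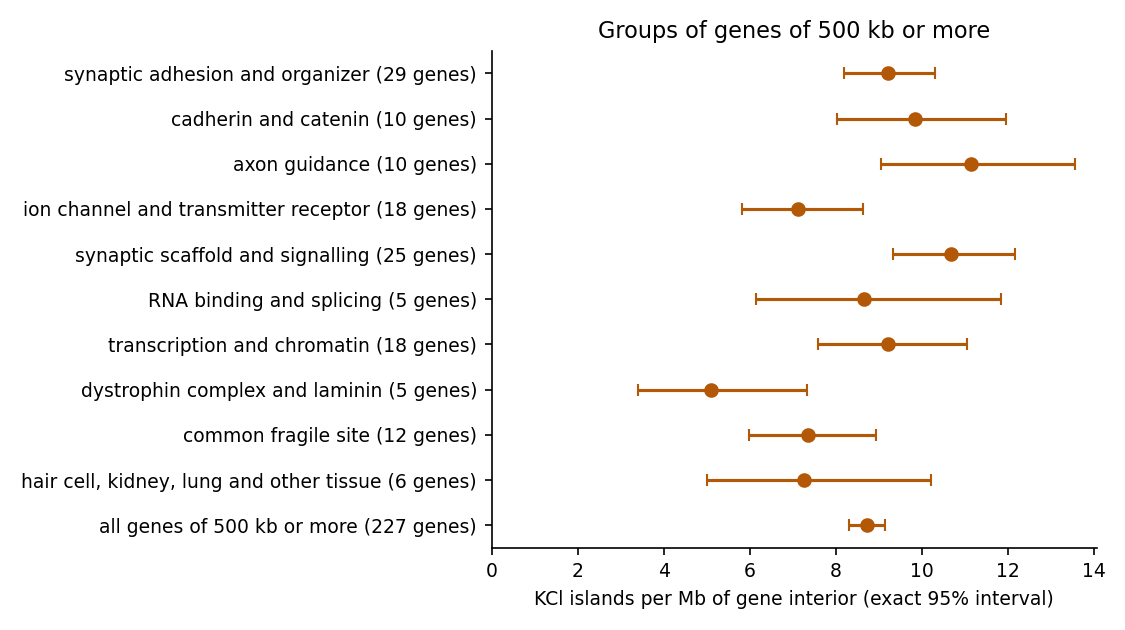
KCl islands per Mb of gene interior for the 10 gene lists and for all 227 genes of 500 kb or more, with exact 95% intervals. Axon guidance genes are highest at 11.1 per Mb and the dystrophin list lowest at 5.10, or 7.83 without Dmd.

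Single islands reached far higher folds than the median. By the lower limit of the interval, the first was in L3mbtl4 on chromosome 17 (68441201 to 68442000), with 63 IP reads against 1 control read (39.6-fold [6.85 to 1587]). A wide and deep one followed in Dlg2 on chromosome 7 (90839401 to 90842400), with 192 IP reads against 14 control reads, 8.61-fold [5.01 to 16.1]. Islands in Ptprt, a receptor phosphatase gene, and Cdh18 rested on 1 control read each (26.4-fold [4.48 to 1066] and 25.1-fold [4.26 to 1017]). Ccser1 (108 against 8 reads, 8.48-fold [4.15 to 20.1]), Ptprd (87 against 6, 9.11-fold [4.02 to 25.5]) and Cacna2d3, a calcium channel auxiliary subunit gene (47 against 2, 14.8-fold [3.86 to 125]), came next. The remaining 3 of the first 10 were in Robo2 (6.70-fold [3.71 to 13.3]), Cntn4 (7.46-fold [3.64 to 17.8]) and Cdh12 (11.1-fold [3.60 to 55.5]). Of these 10 islands, only that of L3mbtl4 overlapped a basal island and none overlapped a promoter window. Over all members these shares were 3.09% and 2.61%.

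The second comparison asked where along long genes the members lay. Strand was available for 179 genes through the promoter table. Divided into 10 equal parts from start to end, these genes had between 7.82 per Mb [6.45 to 9.38] in the last part and 10.3 per Mb in the fourth (lower limit 8.73), and the first part had 7.95 [6.58 to 9.53]. The stretch from 2 to 50 kb past the annotated start had 7.70 per Mb [5.95 to 9.79], and sequence more than 500 kb from it had 8.96 [8.22 to 9.74]. Members were therefore spread along the whole body, with intervals that overlapped between the start and the far interior. Within a gene, neighbouring members were separated by a median of 47.0 kb (interquartile range 20.4 to 108 kb). Of 1433 neighbouring pairs, 96 (6.70%) lay closer than 5 kb and 148 were more than 200 kb apart.

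Outer ends of the same genes were occupied unequally. An island of any width lay within 2 kb of the annotated start in 88 of 179 genes (49.2% [41.6 to 56.7]) and within 2 kb of the annotated end in 7 (3.91% [1.59 to 7.89]). Genes with an island at the start had 10.3 members per Mb [9.57 to 11.1], and those without one had 7.57 [6.97 to 8.21], a ratio of 1.36 [1.22 to 1.52]. Chromosome X held 1 of the 88 and 9 of the 91, and without it the ratio was 1.27 [1.14 to 1.42].

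Members over annotated promoter windows differed from the others in shape. Of the 43, 35 lay over a start of the long gene itself and 8 over starts of other genes only. The 43 had a median width of 3000 bp and a median fold of 1.76 [1.62 to 1.94]. The 1606 that overlapped no window had 1600 bp and 2.64 [2.60 to 2.69]. Among members wider than 2000 bp the medians were 1.73 [1.61 to 1.88] with a window (35 islands) and 2.21 [2.10 to 2.28] without one (499 islands). The same order held inside shorter genes, 1.85 with a window and 2.42 without, and 1.83 was the median at gene ends. The highest fold over a window was 2.88 [1.81 to 4.80], at the Magi1 start shown above (101 IP and 22 control reads, chromosome 6, 93911601 to 93914200). At the Anks1b start, 704 kb into the gene, the island held 166 IP and 47 control reads (2.22-fold [1.60 to 3.14]). The Lsamp start, 1549 kb in, lay under an island of 110 IP and 33 control reads (2.09-fold [1.41 to 3.19]), and that of Hdac9, 388 kb in, under one of 144 and 44 (2.06-fold [1.46 to 2.95]). At Nkain2 and Magi2 the internal starts lay only 7.26 and 7.66 kb from the annotated outer start of the gene, with folds of 2.27 [1.54 to 3.43] and 2.55 [1.48 to 4.62]. The interval lay above 1 for 31 of the 43.

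Coverage of internal starts went with their CpG content. In all, 51 of 131 internal windows of long genes (38.9% [30.5 to 47.8]) had a KCl island of any width, 40 of them under a member. At the gene ends 79 of 159 windows did (49.7% [41.7 to 57.7]). Over all 32851 annotated windows, from genes of any length, the share was 17.5% [17.1 to 17.9]. Among internal windows the share was 22.5% [10.8 to 38.5] with 0 to 4 CpG, 31.8% [18.6 to 47.6] with 5 to 9, 48.1% [28.7 to 68.1] with 10 to 19 and 75.0% [50.9 to 91.3] with 20 or more. The lowest and highest of these intervals did not overlap. However, the 131 windows came from 81 genes, and the 40 under a member lay under 35 islands. The windows are therefore not independent, and the intervals are too narrow. At the gene ends the shares were 41.2%, 47.8%, 38.8% and 60.0%, with overlapping intervals. The 51 covered internal windows had a median of 12 CpG (interquartile range 6 to 20.5), the 40 of them under a member 9.5, and the uncovered ones 6 (2.75 to 9). Fgf13, shown above, is on chromosome X, where islands were sparse.

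The AP-1 motif, TGACTCA or its reverse complement TGAGTCA, was present in 1 of the 40 internal windows under a member (2.50%), that of Fgf12. It was in 3 of the 80 internal windows without a KCl island (3.75%) and 4 of the 159 windows at the gene ends (2.52%). Of all 32851 windows of the table, 5.20% had it. The full cyclic AMP response element, TGACGTCA on either strand, was in 0 of the 40, 1 of the 80 (1.25%) and 1.79% of all windows. These letters were searched only in the 300-base windows and say nothing of the rest of the islands.

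**Figure D5:**
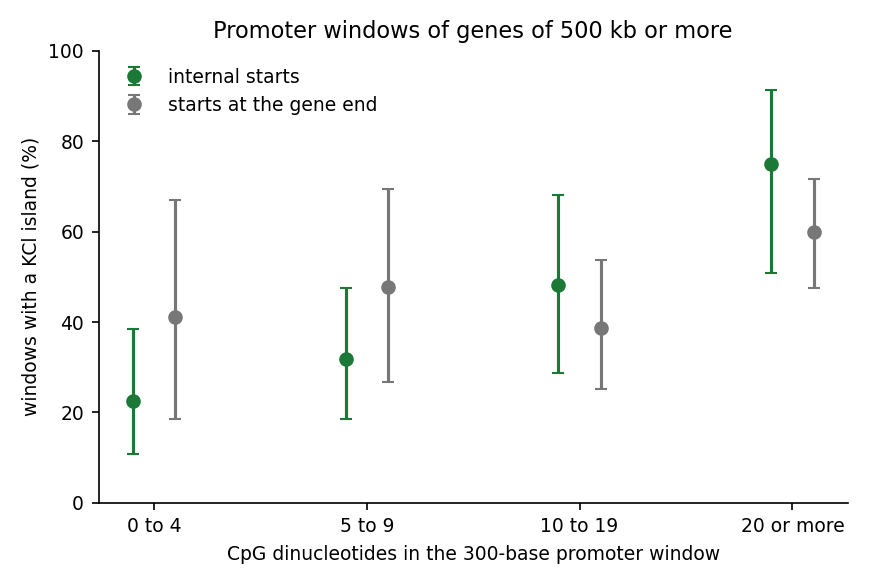
Percent of promoter windows of genes of 500 kb or more that had a KCl island of any width, by number of CpG in the 300-base window, for internal starts and for starts at the gene end, with exact 95% intervals. The internal share is 22.5% at 0 to 4 CpG and 75.0% at 20 or more.

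The third comparison set the members against basal neurons. Few had a basal counterpart, since 51 of 1649 (3.09% [2.31 to 4.05]) overlapped a basal island, against 2.15% of all KCl islands. Inside shorter genes the share was 2.41% [1.99 to 2.88] and outside genes 2.70% [2.34 to 3.10], with overlapping intervals. At gene ends it was 0.723% [0.495 to 1.02]. The basal list held only 711 islands against 20966 in the KCl list, which bounds all these shares. A low share therefore does not show that binding at members was limited to depolarized neurons. None of the 51 overlapped a promoter window, but only 2.61% of all members did, so little can be read from this. The median KCl fold of the 51 was 3.33 [2.97 to 3.62], against 2.61 [2.54 to 2.65] for members without a basal island. The 51 held a median of 94 IP reads against 60. The 51 lay in 41 genes.

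Read from the basal side, long genes had 61 basal islands of any width in their interiors, 0.323 per Mb [0.247 to 0.414], and shorter genes had 0.239 [0.206 to 0.276]. The interval of their ratio, 1.35 [0.993 to 1.81], held 1. Outside genes the basal rate was 0.241 [0.218 to 0.267] and at gene ends 0.562 [0.448 to 0.696]. Of the 61 in long genes, 49 overlapped a member and 56 (91.8% [81.9 to 97.3]) a KCl island of any width. That share was 72.0% [64.9 to 78.4] inside shorter genes, 57.3% [52.2 to 62.3] outside genes and 50.0% [38.9 to 61.1] at gene ends. The interval for long genes lay above those of the other places. The lists differ in length and each fold depends on its own control, so folds of the same place in KCl and basal neurons are given side by side and not compared.

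The shared islands with the highest KCl lower limits, after L3mbtl4 (basal 67 IP and 35 control reads, 2.18-fold [1.42 to 3.37]), began with Nlgn1, Kcnq5 and Adgrl3. In Nlgn1, encoding the postsynaptic adhesion protein neuroligin 1, the KCl island held 86 IP and 7 control reads (7.72-fold [3.59 to 19.8], chromosome 3, 25773601 to 25774400) and the basal one 41 and 16 (2.91-fold [1.60 to 5.56]). In Kcnq5, a gene of the M-current potassium channels, KCl gave 94 and 9 reads (6.56-fold [3.31 to 14.8]) and basal 49 and 24 (2.32-fold [1.40 to 3.95]). Adgrl3, the gene of latrophilin 3, had 119 and 14 reads in KCl (5.34-fold [3.06 to 10.1]) and 43 and 20 in basal neurons (2.44-fold [1.41 to 4.38]). Coverage in both states and a high KCl fold are how these 3 islands were picked, not findings about them. Egfem1 (5.72-fold in KCl, 2.91-fold in basal), Ctnna2 (4.69 and 1.85), the exocyst gene Exoc4 (4.45 and 2.51), Dab1 (4.49 and 1.91), Nkain2 (4.78 and 4.55) and Robo1 (4.78 and 2.27) completed the first 10. Of the genes named for most members, Ptprd, Cadm2, Lsamp, Nav3, Cntnap2 and Csmd1 had 0 members that overlapped a basal island and Dlg2, Robo2, Magi2, Tenm3 and Lrp1b had 1 each.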

How the data were processed

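ChIP-seq with the J1 anti-BRG1/BRM antibody was carried out on 4 libraries, 1 IP and 1 input for each of KCl and basal neurons, and the 2 island lists of the IP libraries were analysed. Per the submitters' processing notes, BWA (version not given in the sources used here), mm10 and SICER 1.0 were used for alignment and island calling. SICER settings of 200 bp per window, 600 bp for gaps and 0.01 for the FDR stand in the list names. Per island the authors deposited a count of IP reads and a count of control reads, not normalized. They also deposited a p-value, its FDR, and a fold, in which the IP to control ratio is scaled by a library constant (divisor 1.59 for KCl and 0.880 for basal). The labels do not say which input was the control, and total depth is unknown. Each list was called on 1 library, not on pooled samples, so narrow or weakly enriched sites can go uncalled.

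Coordinates were converted to 1-based positions. Genes were the protein-coding genes of RefSeq GRCm38.p6, the same build, on chromosomes 1 to 19, X and Y. Interiors were gene bodies without 2 kb to either side of any gene's start or end coordinate, merged so that no base counts more than once. Strand and internal starts came from RefSeq promoter windows, which covered 179 of the 227 long genes. Overlap meant at least 1 bp. Rates have exact Poisson intervals, shares Clopper-Pearson intervals, and folds the exact binomial interval of IP among IP and control reads. Ratios of rates have exact conditional intervals and medians order-statistic intervals. All cover counting error only, since there was 1 IP library per condition. For the same reason no test between groups was made. Overlaps were checked against bedtools 2.31.1 and rates tested on simulated islands, with numpy 2.4.6, scipy 1.17.1 and pandas 2.3.3 in Python 3.11.15.

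Members, gene lists and rules were chosen with earlier results of these data known. Named genes were the 12 with most members, the 8 densest with at least 10, those without members, up to 3 per list with most members, and 3 on each side of 500 kb. Named islands were the first 10 by the lower limit of fold, and the first 10 of those overlapping a basal island. The first 6 internal starts by the lower limit of their island and the uncovered one with most CpG were shown. Other names were chosen after their values were seen. A gene among the 12 is not reported here. Alternatives were thresholds of FDR, fold and interval, gene length, end windows, widths, predicted genes, control density, overlap, chromosome X and searched length.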

Additional observations from a re-analysis of the deposited data

How the results depend on the processing

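Of 83 alternative values, 64 stayed within the interval of the value reported, or for counts within 1.5 times of it. A reversal was defined only for the ratio of rates to shorter genes. That ratio ran from 1.23 to 1.60 and did not reverse. With an FDR of at most 1e-05 the rate in long genes was 7.12 islands per Mb, its ratio to shorter genes 1.51 and the median fold 2.88. With a fold of at least 2 these were 6.60, 1.60 and 2.96, and with the fold interval above 1 the rate was 7.85 and the median fold 2.74. A gene length of 400 kb gave 331 genes with an island and a ratio of 1.51, and 1000 kb gave 675 islands, 58 genes, a ratio of 1.31 and a median fold of 2.69. Leaving out 10 kb around gene ends lowered the ratio to 1.23. Islands of every width gave 10.4 per Mb and a median fold of 2.72. Requiring at least 50% of the KCl island's width to be shared lowered the share with a basal island to 2.06%. This setting changed only what counts as overlap. Those before it changed which islands, genes or lengths of interior were counted. A searched length less the median width per stretch, chosen after seeing the data, gave a ratio of 1.37. Leaving out chromosome X, also chosen after seeing the data for the lists, moved the dystrophin list to 7.83 per Mb and kept the other 9 lists within their intervals. The pooled folds of the 12 genes with most members stayed within their intervals without their largest island in 12 of 12. No paired analysis was possible because each condition had 1 IP library. Depth limits single islands, of which the least covered held 30 IP reads, and an uncalled stretch does not show absence of binding.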

Other observations

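Genes of 500 kb or more that were in none of the lists numbered 91 and held 514 members, 8.22 per Mb [7.52 to 8.96], and 88 of them had at least 1. Among them were Arhgap15 with 17 members, Galntl6, a gene of the polypeptide N-acetylgalactosaminyltransferase family, with 17 (15.1 per Mb [8.78 to 24.1]), and Mdga2, a GPI-anchored adhesion gene, with 16 (21.1 per Mb). The glypican gene Gpc6 had 14 (13.3 per Mb [7.29 to 22.4]). Galntl6, Mdga2 and Gpc6 were chosen after their values were seen. The median fold of members in these 91 genes was 2.67 [2.58 to 2.82], against 2.60 [2.51 to 2.65] in the 136 genes of the lists.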
